A study of Mus musculus with 6 samples.

Results

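The solute carriers of sugars, amino acids and monocarboxylates were examined in sorted mouse parietal cells, which secrete gastric acid, with and without transgenic noggin. They were taken as the 107 rows, of 23284 genes in the deposited table, whose symbols belong to the Slc1, Slc2, Slc3, Slc5, Slc6, Slc7, Slc15, Slc16, Slc36, Slc38 or Slc43 families. Of these rows, 105 are carriers, and Slc2a4rg-ps and Slc7a6os are neighbouring or related genes that share the start of a carrier's symbol. The noggin group held 3 libraries from mice of genotype Transgenic-Tom-nog, which carried H+/K+-Cre, H+/K+-Nog and Rosa26-tdTom. The control group held 3 libraries from mice of genotype Transgenic-Tom, labelled as control. Parietal cells of both groups were marked by the red fluorescent protein tdTomato and sorted by flow cytometry, and per the labels each library is a biological replicate. The H+/K+ prefix names the proton pump of parietal cells, whose promoter is active in these cells, and noggin is a secreted protein that binds bone morphogenetic proteins and keeps them from their receptors, so cells other than the producing cell can also be exposed. The labels give neither the age of the mice nor the number of animals behind a replicate, and p-values therefore reflect only how far these libraries vary, which may be technical.

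Carriers of these families move nutrients across membranes. Slc2 proteins (GLUTs) let glucose or fructose pass down its gradient, whereas most Slc5 proteins couple their cargo to sodium. Slc1, Slc6, Slc7, Slc36, Slc38 and Slc43 proteins carry amino acids or their relatives, and several Slc7 proteins reach the plasma membrane only as the light chain of a pair with an Slc3 heavy chain. Slc16 proteins (MCTs) include the proton-coupled carriers of lactate, pyruvate and ketone bodies, which need the chaperone proteins basigin or embigin, and Slc15 proteins carry peptides and histidine. Parietal cells are rich in mitochondria and spend much energy on acid secretion, and bone morphogenetic protein signalling is known for keeping gastric epithelial cells mature.

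The proximal promoters of the 4 carriers with a RefSeq entry whose values came nearest to or past the test's threshold are shown here, so that the sequences stand beside the genes described next. Each runs from 250 bases before to 50 bases after the start of transcription, 5′ to 3′ on the gene's own strand, in RefSeq GRCm38.p6. Capitals mark the GC box (GGGCGG, or CCGCCC where it lies on the other strand) and the E-box (CACGTG). The windows are chrX:8271131-8271430 on the plus strand for Slc38a5, chr4:150119094-150119393 on the plus strand for Slc2a5, chr11:120151302-120151601 on the minus strand for Slc38a10, and chr14:54781837-54782136 on the minus strand for Slc7a8.
Slc38a5: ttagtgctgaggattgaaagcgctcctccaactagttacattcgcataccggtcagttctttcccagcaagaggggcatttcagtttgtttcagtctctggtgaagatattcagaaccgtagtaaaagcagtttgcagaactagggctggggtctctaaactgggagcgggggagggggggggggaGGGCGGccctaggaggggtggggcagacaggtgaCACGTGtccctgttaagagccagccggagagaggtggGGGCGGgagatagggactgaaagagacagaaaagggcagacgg
Slc2a5: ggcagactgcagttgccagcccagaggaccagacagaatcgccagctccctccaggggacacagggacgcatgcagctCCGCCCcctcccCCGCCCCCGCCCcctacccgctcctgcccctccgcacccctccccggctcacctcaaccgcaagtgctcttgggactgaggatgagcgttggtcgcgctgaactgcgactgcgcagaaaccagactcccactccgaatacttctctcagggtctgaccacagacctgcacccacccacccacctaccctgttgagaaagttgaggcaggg
Slc38a10: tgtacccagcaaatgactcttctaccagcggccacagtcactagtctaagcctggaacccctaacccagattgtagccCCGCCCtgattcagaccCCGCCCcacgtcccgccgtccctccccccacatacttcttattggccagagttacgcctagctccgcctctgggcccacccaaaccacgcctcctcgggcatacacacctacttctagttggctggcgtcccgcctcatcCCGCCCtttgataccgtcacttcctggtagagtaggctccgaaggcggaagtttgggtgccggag
Slc7a8: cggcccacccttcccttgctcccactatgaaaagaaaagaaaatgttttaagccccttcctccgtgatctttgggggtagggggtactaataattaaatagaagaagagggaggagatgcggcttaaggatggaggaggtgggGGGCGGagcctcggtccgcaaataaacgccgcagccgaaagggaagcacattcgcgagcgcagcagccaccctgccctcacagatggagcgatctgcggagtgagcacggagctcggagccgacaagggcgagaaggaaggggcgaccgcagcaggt
The Slc38a5 window held 2 GC boxes and 1 E-box, the Slc2a5 and Slc38a10 windows held 3 GC boxes each, and the Slc7a8 window held 1 GC box. Of the members, 77 had a RefSeq promoter entry, with 100 windows among them. A GC box lay in 51% of these windows, against 35.7% of all 32851 promoter windows of the same length, and an E-box lay in 11% against 7.15%, searched on both strands. In the 45 windows of tested members these shares were 73.3% for the GC box and 11.1% for the E-box. No motif share was computed over the promoters of all tested genes, so none here is shown to be particular to these carriers. The letters GGCGCC, a palindrome bound by SMAD proteins, lay in 18% of the members' windows and 11.9% of all. The letters AAGGTCA, bound by oestrogen-related receptors, lay in 5% and 4.72%, and the letters TGATGNAA, the core of the amino acid response element, in 5% and 3.97%. In the windows of tested members the 3 motifs lay in 20%, 0% and 6.67%, so every AAGGTCA match among members was in an untested gene. GGGCGG and GGCGCC can share bases where they meet. A match describes the letters and is not evidence of binding.

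The transgene was seen in the libraries labelled noggin. Nog stood at 2734, 2289 and 2281 FPKM in noggin libraries, against 1.97, 0.871 and 1.09 FPKM in control libraries. FPKM, read fragments scaled by transcript length and by sequencing depth, is the unit of the deposited values, and it allows genes of different length to be compared. The proton pump subunits that mark parietal cells were abundant in both groups. Atp4a stood between 5433 and 7619 FPKM in noggin libraries and between 13390 and 16220 FPKM in control libraries. Atp4b stood between 21470 and 25180 FPKM in noggin libraries and between 16880 and 21420 FPKM in control libraries. Summed FPKM over all genes was 797168 to 1188186 in noggin libraries and 595736 to 669124 in control libraries, so comparisons depend on scaling. The levels above were not rescaled, and below only some changes are also given with libraries rescaled to the same total. Noggin replicate 3 stood apart by listing 542 of the 10644 tested genes, and 4 of the tested members, at 0. The other 5 libraries listed 19 to 34 tested genes and no tested member at 0. Depth is unknown, because the table holds no counts.

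Most of these carriers were scarce in parietal cells. Of the 107 rows, 4 were listed at 0 in every library, 50 stayed under 1 FPKM everywhere (those 4 included), and 10 more reached 1 FPKM in fewer than 3 libraries. The remaining 47 were tested, and over all 6 libraries 25 rows averaged at least 5 FPKM, 18 at least 10 FPKM and 4 at least 50 FPKM. Those 4 were Slc16a7, Slc3a2, Slc2a4 and Slc16a5, which carry or help to carry monocarboxylates, amino acids and glucose.

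In noggin parietal cells, 2 of the 47 tested members rose, Slc38a5 and Slc2a5, and 1 fell, Slc2a4. Slc38a5 is a sodium-coupled carrier of glutamine and other neutral amino acids, Slc2a5 is the fructose transporter GLUT5, and Slc2a4 is the insulin-responsive glucose transporter GLUT4. The calls come from limma on log2(FPKM + 1), with Benjamini-Hochberg adjustment over all 10644 tested genes and an adjusted p under 0.05. Of all tested genes, 1.75% were called higher and 0.695% lower, so these counts lie near the background and are not a result about the families as a whole. A further 10 members differed only at an unadjusted p under 0.05, making 13 in all. The share of all tested genes at that unadjusted p was not computed, so this count is not a result about the families either. The median log2 fold change of the tested members was 0.03, against -0.03 for all tested genes, with 24 members above 0 and 23 below. Values of the groups did not overlap for 10 members that were higher in noggin and 10 that were lower, against 20.3% and 18% of all tested genes, so these shares were also near the background.

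**Figure D1:**
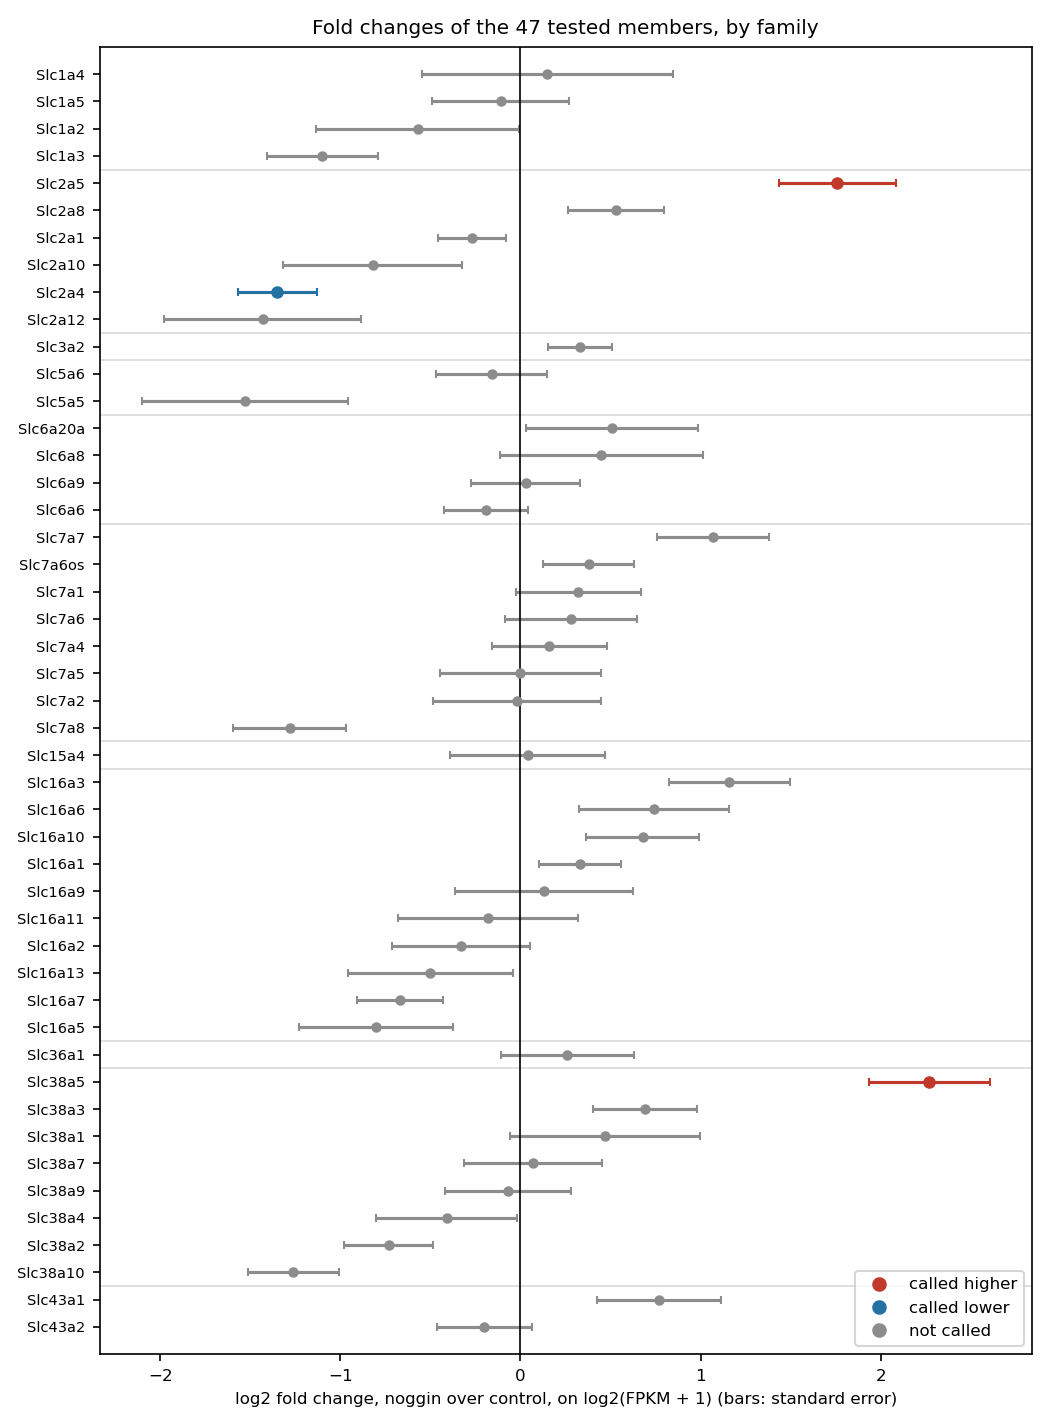
Log2 fold change (x axis, noggin over control, on the log2(FPKM + 1) scale) of the 47 tested members, which run down the page by family, with bars for the standard error from limma. Slc38a5 and Slc2a5 (red) lie furthest to the right at 2.27 and 1.76, Slc2a4 (blue) lies at -1.35, and the 44 members not called (grey) include Slc5a5 at -1.53 and Slc2a12 at -1.43, both with wide bars.

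Among the glucose and fructose carriers, Slc2a4 fell and Slc2a5 rose. Slc2a4 stood at 38.5, 36.5 and 26.6 FPKM in noggin libraries, against 75.2, 85.4 and 102 FPKM in control libraries. Every noggin library lay below every control library. Its log2 fold change was -1.35 (SE 0.219, limma, adjusted p = 0.033, n = 3 per group). The gene lies on chromosome 11 at 69942539 to 69948188 on the minus strand (GRCm38, GENCODE M21). Slc2a5, on chromosome 4, stood at 4.76, 7.09 and 8.93 FPKM in noggin libraries and at 1.37, 1.35 and 1.13 FPKM in control libraries, again without overlap. Its log2 fold change was 1.76 (SE 0.324, limma, adjusted p = 0.0429). Slc2a1, the glucose carrier GLUT1 of most cells, was at 38.4, 37.1 and 29.2 FPKM in noggin libraries, against 42.6, 41.0 and 42.1 FPKM in control libraries. The groups did not overlap for Slc2a1, but the log2 fold change of -0.27 (SE 0.19) did not pass the test (limma, adjusted p = 0.389), and under the length correction it was 0.01 with lengths from the basic transcript set and -0.44 with lengths from all annotated transcripts. Slc2a8, an intracellular hexose carrier, had 14.6, 13.3 and 20.3 FPKM in noggin libraries and 12.9, 9.18 and 10.3 FPKM in control libraries, with a change of 0.53 in log2 units (limma, adjusted p = 0.244) that stood at -0.14 with libraries rescaled to the same total, which is 0.49 above the median of all tested genes under that scaling.

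The make-up of the Slc2 family within a library does not change when the whole library is multiplied by 1 factor, as in rescaling to the same total. Quantile normalization and the length correction can change it, and the shares below use the deposited values. Slc2a4 held 36.7%, 34.7% and 30.8% of the summed Slc2 FPKM in noggin libraries, against 51.2%, 57.2% and 61.6% in control libraries. Slc2a1 held 36.6%, 35.3% and 33.8% in noggin libraries and 29%, 27.4% and 25.4% in control libraries. In control libraries Slc2a4 exceeded Slc2a1 in log2 units by 0.82, 1.06 and 1.28, whereas in noggin libraries the same log2 ratio was 0.00, -0.02 and -0.13, so the 2 carriers stood about level there. The summed FPKM of the family was 105, 105.1 and 86.4 in noggin libraries, against 147, 149 and 166 in control libraries. Slc2a5 made up 4.54%, 6.75% and 10.3% of it in noggin libraries and 0.933%, 0.902% and 0.68% in control libraries. Slc2a12, a further glucose carrier, was at 1.28, 3.78 and 0.0124 FPKM in noggin libraries and 4.54, 5.80 and 4.71 FPKM in control libraries, with a difference of -1.43 in log2 units that was -0.86 without noggin replicate 3 (limma, adjusted p = 0.151 and 0.139). Its exons overlap those of Tbpl1 on the other strand, and no source used here says that strand was kept in counting. Slc2a10 overlapped between groups, at 1.19 to 6.11 FPKM in noggin libraries and 4.91 to 9.80 FPKM in control libraries.

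**Figure D2:**
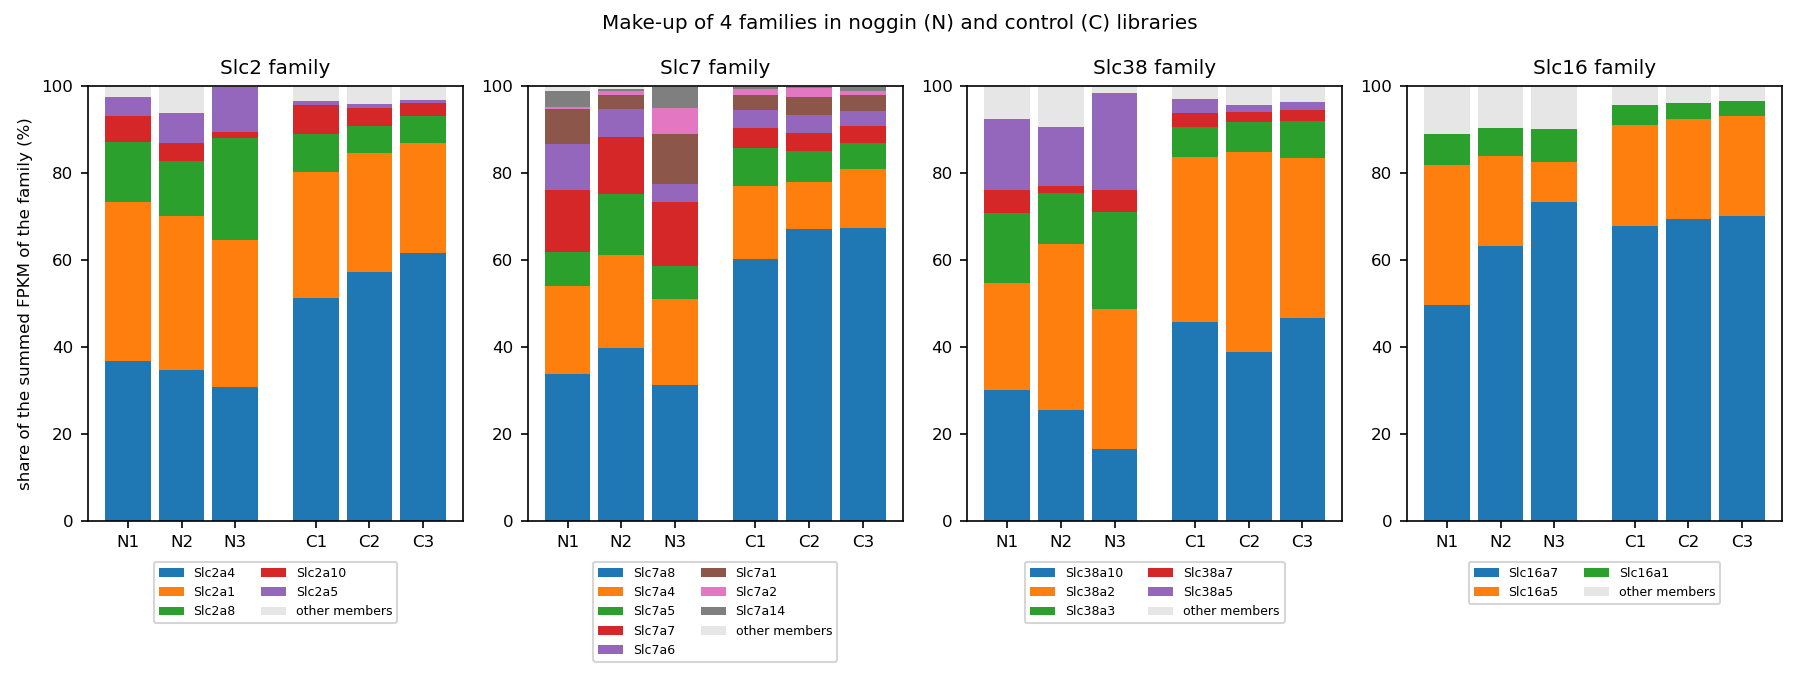
Share of each family's summed FPKM (y axis, in percent) held by its members in noggin libraries (N1 to N3) and control libraries (C1 to C3), for the Slc2, Slc7, Slc38 and Slc16 families, with members under 5% in every library pooled as other members. The Slc2a4 and Slc7a8 segments are smaller in all 3 noggin libraries than in all 3 control libraries, and the Slc38a5 segment is larger.

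The shares were compared with an exact two-sided permutation test, which cannot go below 0.1 with 3 against 3 libraries. Of the 44 shares computed over all families, 18 reached that smallest p of 0.1, among them those of Slc2a4, Slc2a1, Slc2a5, Slc2a8, Slc7a8, Slc7a7 and Slc38a5, and it became 0.244 after Benjamini-Hochberg adjustment over the 44 exact tests. The log2 ratios between pairs of carriers were chosen after values had been seen, and 6 of the 7 reached an exact permutation p of 0.1, or 0.117 adjusted over the 7.

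Among the sodium-coupled Slc5 carriers, 2 of 13 rows passed the filter and neither was called. Slc5a5, the sodium and iodide symporter, had 8.73, 6.45 and 1.09 FPKM in noggin libraries and 19.1, 12.7 and 12.3 FPKM in control libraries. The groups did not overlap, and its log2 fold change of -1.53 (SE 0.571) did not pass the test (limma, adjusted p = 0.145). Without noggin replicate 3, its lowest library, it was -0.85 (limma, adjusted p = 0.0916). Slc5a6, the sodium-dependent multivitamin carrier, was at 3.90 to 6.33 FPKM in noggin libraries and 4.48 to 5.96 FPKM in control libraries. Slc5a1, the intestinal sodium and glucose cotransporter SGLT1, did not pass the filter, at 0.3004, 1.42 and 7.40 FPKM in noggin libraries and 0.851, 0.379 and 0.950 FPKM in control libraries, with noggin replicate 3 alone high.

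In the Slc38 family of neutral amino acid carriers, Slc38a5 rose and 7 other tested members were not called. Slc38a5, on chromosome X at 8271133 to 8280179, had 16.5, 16.4 and 24.8 FPKM in noggin libraries, against 4.75, 2.26 and 2.69 FPKM in control libraries. Noggin replicate 3 was the highest, and all noggin libraries lay well above all control libraries. The log2 fold change was 2.27 (SE 0.335, limma, adjusted p = 0.0293, n = 3 per group). Slc38a5 held 16.2%, 13.6% and 22.3% of the summed Slc38 FPKM in noggin libraries and 3.31%, 1.63% and 1.76% in control libraries.

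No other Slc38 member was called, and of the 8 tested, 4 lay above 0 and 4 below. Slc38a2, which takes up small neutral amino acids and is induced when amino acids run short, had 25.2, 46.0 and 35.5 FPKM in noggin libraries, against 54.3, 63.9 and 56.5 FPKM in control libraries, with no overlap and a difference of -0.73 in log2 units (SE 0.247, limma, adjusted p = 0.124). That difference was -0.26 after a correction for transcript length by the basic transcript set and -0.13 by all annotated transcripts (limma, adjusted p = 0.513 and 0.74), and -1.43 with libraries rescaled. Slc38a10, a less studied member of the family, had 30.7, 30.5 and 18.4 FPKM in noggin libraries, against 65.7, 53.9 and 71.4 FPKM in control libraries. All noggin libraries lay below all control libraries, and its log2 fold change of -1.26 (SE 0.253) narrowly missed the threshold (limma, adjusted p = 0.0504). Slc38a3, a carrier of glutamine and histidine coupled to sodium and protons like Slc38a5, had 16.4, 14.1 and 24.9 FPKM in noggin libraries and 9.95, 9.51 and 12.99 FPKM in control libraries. It did not overlap between groups, with a difference of 0.69 in log2 units (SE 0.289, limma, adjusted p = 0.176). Slc38a5 over Slc38a2 stood at -0.61, -1.49 and -0.52 as a log2 ratio in noggin libraries and at -3.51, -4.82 and -4.39 in control libraries.

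No Slc7 or Slc3 member was called, and Slc7a8 was the most abundant Slc7 carrier in all 6 libraries. Slc3a2, the heavy chain 4F2hc that brings several Slc7 proteins to the plasma membrane, had 97.1, 91.7 and 74.4 FPKM in noggin libraries and 69.6, 70.0 and 68.3 FPKM in control libraries, with a log2 fold change of 0.33 (limma, adjusted p = 0.268) that stood at -0.38 when libraries were rescaled, 0.25 above the median of all tested genes there, and at -0.03 after quantile normalization. Slc7a8, the light chain LAT2 for neutral amino acids, had 14.99, 33.6 and 16.5 FPKM in noggin libraries, against 45.2, 54.3 and 53.1 FPKM in control libraries. The groups did not overlap, noggin replicate 2 lay nearest the control libraries, and the log2 fold change of -1.28 (SE 0.314) did not pass the test (limma, adjusted p = 0.0765). Under the length correction it was -0.86 with the basic transcript set and -0.91 with all transcripts (limma, adjusted p = 0.141 and 0.106). Slc7a7, the light chain of a carrier that exchanges cationic for neutral amino acids, had 6.34, 11.1 and 7.74 FPKM in noggin libraries and 3.60, 3.43 and 3.10 FPKM in control libraries. Its log2 fold change was 1.07 (SE 0.31, limma, adjusted p = 0.101) without overlap, and its exons overlap those of Oxa1l on the other strand.

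Slc7a8 made up 33.7%, 39.8% and 31.3% of the summed Slc7 FPKM in noggin libraries, against 60.2%, 67% and 67.3% in control libraries. Slc7a7 made up 14.3%, 13.1% and 14.7% in noggin libraries and 4.8%, 4.24% and 3.92% in control libraries. The log2 ratio of Slc7a8 to Slc7a7 was 1.24, 1.60 and 1.09 in noggin libraries and 3.65, 3.98 and 4.10 in control libraries, so Slc7a8 stayed the more abundant of the pair in every library. Slc7a5, the light chain LAT1, had 3.44, 11.9 and 4.10 FPKM in noggin libraries and 6.55, 5.76 and 4.75 FPKM in control libraries, with overlap. Slc7a6os, not a carrier, was at 13.3 to 21.1 FPKM in noggin libraries and 12.5 to 14.1 FPKM in control libraries (limma, adjusted p = 0.356). The other heavy chain, Slc3a1, stayed at or under 0.366 FPKM in every library.

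**Figure D3:**
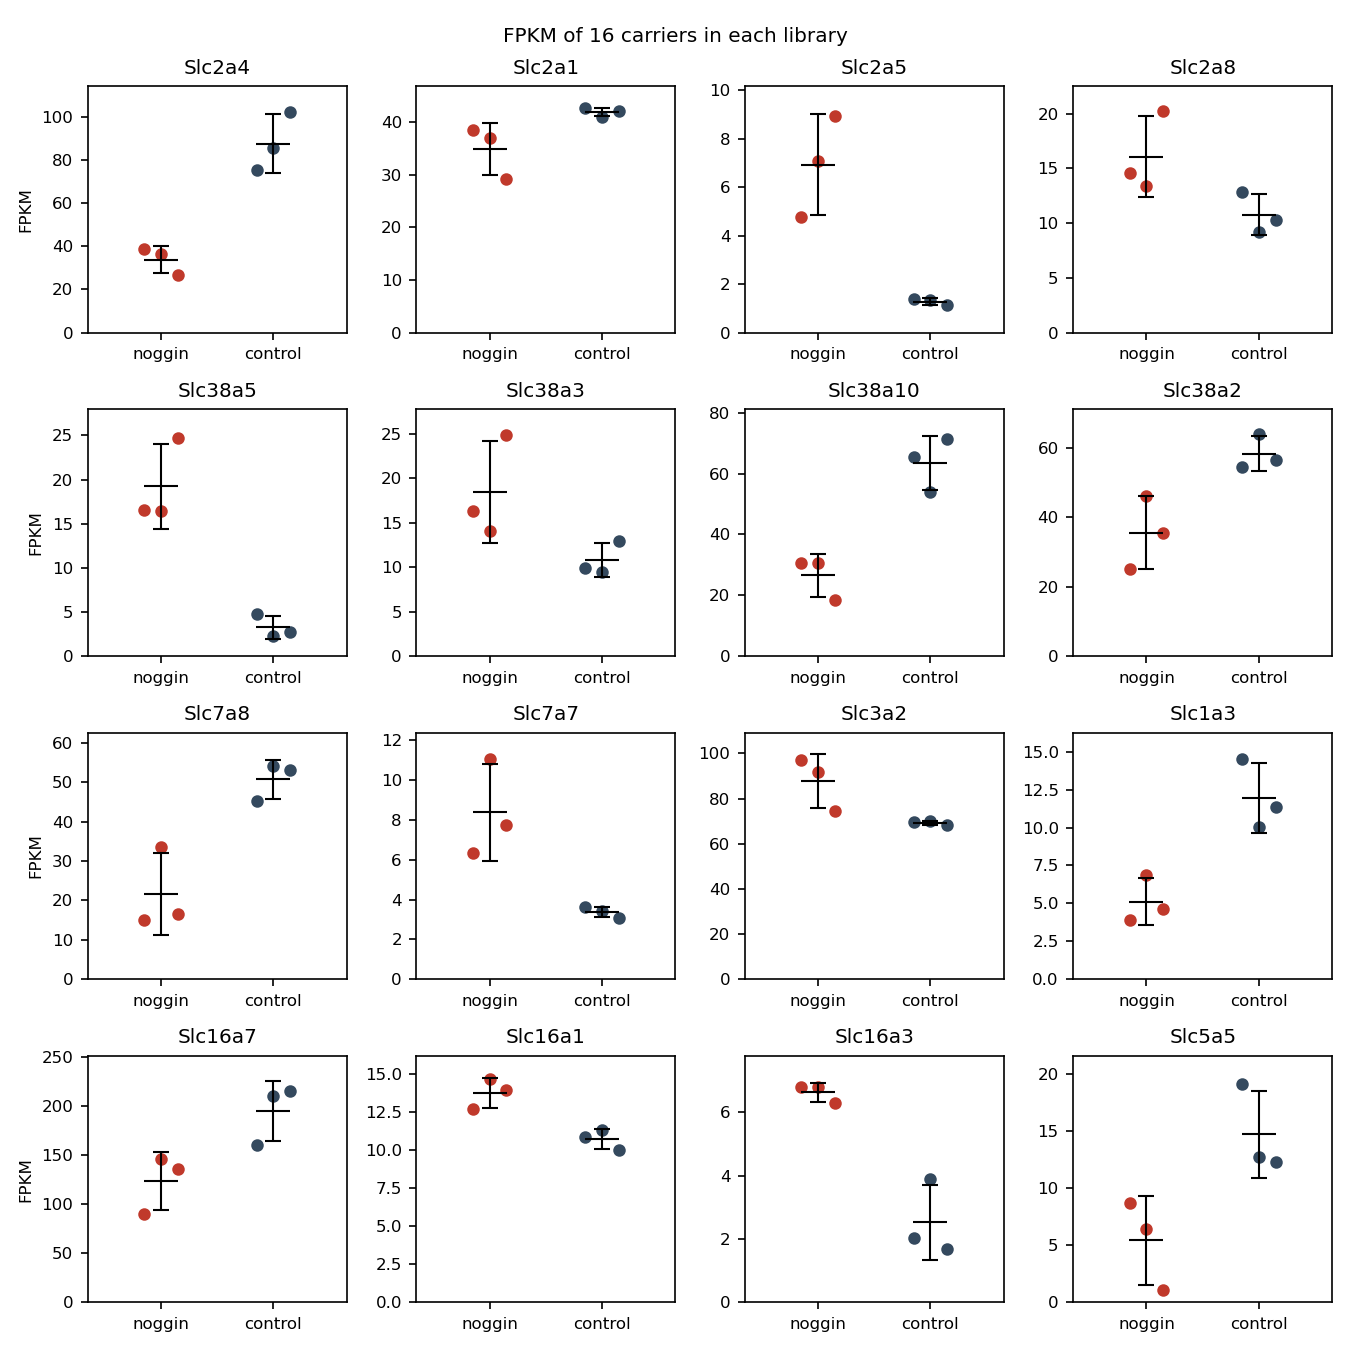
FPKM (y axis, from 0, scaled separately for each panel) of 16 carriers in noggin libraries (red points, left) and control libraries (dark points, right), with the mean and SD over 3 libraries in black. Slc2a4, Slc38a10, Slc38a2, Slc7a8, Slc1a3, Slc16a7, Slc2a1 and Slc5a5 lie lower in every noggin library than in any control library, and the other 8 lie higher, although only Slc2a4, Slc2a5 and Slc38a5 were called. All 16 come from the members without overlap, 10 higher and 10 lower of 47 tested, and members with overlap are not shown. Of all tested genes, 20.3% were higher and 18% lower without overlap.

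Among the glutamate and neutral amino acid carriers of the Slc1 family, none of 4 tested members was called. Slc1a3, a glutamate and aspartate carrier, had 3.88, 6.85 and 4.63 FPKM in noggin libraries, against 14.5, 10.02 and 11.4 FPKM in control libraries. The groups did not overlap, and the log2 fold change was -1.10 (SE 0.308, limma, adjusted p = 0.0963). Slc1a5, the glutamine carrier ASCT2, overlapped fully, at 43.2, 43.9 and 16.5 FPKM in noggin libraries and 39.6, 28.8 and 35.5 FPKM in control libraries, with noggin replicate 3 low.

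The Slc6, Slc15, Slc36 and Slc43 families also had no called member. Slc6a6, the taurine carrier, had 10.7 to 14.5 FPKM in noggin libraries and 13.6 to 15.3 FPKM in control libraries. Slc6a8, the creatine carrier, had 17.3, 4.42 and 2.94 FPKM in noggin libraries and 3.43, 4.69 and 5.12 FPKM in control libraries, so that noggin replicate 1 alone stood high, and its log2 fold change of 0.45 stood at -0.22 without that library. Slc15a4, a lysosomal carrier of peptides and histidine, had 5.22, 12.01 and 19.0 FPKM in noggin libraries and 11.9, 8.90 and 10.8 FPKM in control libraries. Slc15a2, a peptide carrier below the filter, was listed at 2.51, 0.687 and 0 FPKM in noggin libraries and at 0.428 to 0.510 FPKM in control libraries. Slc36a1, a proton-coupled carrier of small amino acids, had 1.19 to 3.79 FPKM in noggin libraries and 1.25 to 1.86 FPKM in control libraries, and Slc36a4 stayed at or under 0.698 FPKM in noggin libraries and at 0.852 to 1.09 FPKM in control libraries. The Slc43 carriers of large neutral amino acids were low. Slc43a1 had 1.07, 2.70 and 1.44 FPKM in noggin libraries and 0.488, 0.992 and 0.264 FPKM in control libraries (limma, adjusted p = 0.197). Slc43a2 had 0.774, 1.07 and 0.819 FPKM in noggin libraries and 1.203, 1.202 and 1.09 FPKM in control libraries (limma, adjusted p = 0.646).

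The monocarboxylate carriers included Slc16a7, the member with the highest mean FPKM over all 6 libraries, and none of the 10 tested was called. Slc16a7, MCT2, a high-affinity carrier of pyruvate and lactate, had 90.6, 146 and 136 FPKM in noggin libraries, against 161, 211 and 216 FPKM in control libraries. The groups did not overlap, and the log2 fold change was -0.67 (SE 0.238, limma, adjusted p = 0.134). Slc16a1, the widespread carrier MCT1, had 12.7, 14.7 and 13.9 FPKM in noggin libraries and 10.9, 11.3 and 10.01 FPKM in control libraries, with a log2 fold change of 0.33 (limma, adjusted p = 0.377). Slc16a3, the lactate exporter MCT4 of glycolytic cells, had 6.79, 6.81 and 6.29 FPKM in noggin libraries and 2.03, 3.89 and 1.68 FPKM in control libraries. Its noggin libraries lay close together and above all control libraries, with a difference of 1.16 in log2 units (SE 0.335, limma, adjusted p = 0.1). Slc16a5 had 59.0, 48.2 and 17.1 FPKM in noggin libraries and 54.8, 69.4 and 71.5 FPKM in control libraries, with overlap, and its log2 fold change of -0.80 was -0.28 without noggin replicate 3. The log2 ratio of Slc16a7 to Slc16a1 was 2.83, 3.32 and 3.29 in noggin libraries and 3.88, 4.22 and 4.43 in control libraries.

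Partners of these carriers and related carriers gave 2 further calls, while 1.75% of all tested genes were called higher and 0.695% lower. Embigin (Emb), a chaperone of MCT2, rose, with 14.0, 41.1 and 33.1 FPKM in noggin libraries against 4.69, 3.94 and 2.56 FPKM in control libraries. Its log2 fold change was 2.58 (SE 0.428, limma, adjusted p = 0.0356), without overlap, and it was the 1 called among 12 tested accessory genes. Basigin (Bsg), the chaperone of MCT1 and MCT4, was far more abundant, with 1986, 1329 and 1298 FPKM in noggin libraries and 933, 874 and 877 FPKM in control libraries, and a log2 fold change of 0.75 (limma, adjusted p = 0.122) that stood at -0.04 after quantile normalization. Txnip, an arrestin-like protein that limits glucose uptake, had 137, 199 and 155 FPKM in noggin libraries and 292, 294 and 281 FPKM in control libraries, with no overlap and a difference of -0.83 in log2 units (SE 0.193, limma, adjusted p = 0.0702).

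Slc50a1, a sugar carrier of the SWEET family, rose as the 1 called among 20 tested carriers outside the member families. It had 140, 81.0 and 116 FPKM in noggin libraries, against 51.5, 41.1 and 42.7 FPKM in control libraries, and it changed by 1.27 in log2 units (SE 0.239, limma, adjusted p = 0.0446). That value was 0.62 under the length correction with the basic transcript set and 1.13 with all transcripts, and 0.56 with libraries rescaled, and none of these passed the test (limma, adjusted p = 0.143, 0.0628 and 0.115). The subunits of the mitochondrial pyruvate carrier, listed as Brp44l and Brp44, had log2 fold changes of 0.50 and 0.76 (limma, adjusted p = 0.209 and 0.126), with neither passing the test. For Brp44l the value was -0.21 when libraries were rescaled, -0.27 after quantile normalization, and -0.14 or 0.30 under the length correction with the basic set or all transcripts. For Brp44 it was 0.05 when rescaled, -0.00 after quantile normalization and 0.18 under the length correction with the basic set. The mitochondrial aspartate and glutamate carriers Slc25a12 and Slc25a13 had log2 fold changes of -0.56 and -1.09 (limma, adjusted p = 0.241 and 0.153). Slc25a12 stood at -0.25 without noggin replicate 1 and at -0.01 under the length correction with the basic set. Slc25a13 stood at -0.67 without noggin replicate 3, and at -1.52 without noggin replicate 2, where it was called (limma, adjusted p = 0.0322). None of 27 tested genes of amino acid sensing was called, with 11 above 0 and 16 below and a median log2 fold change of -0.34.

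**Figure D4:**
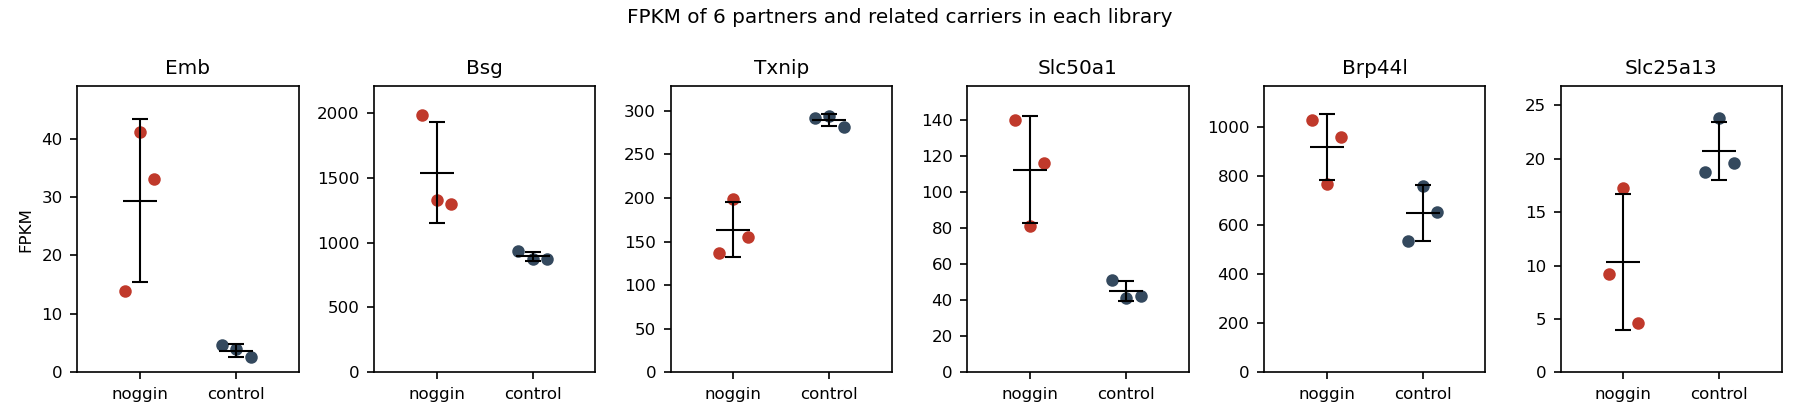
FPKM (y axis, from 0, scaled separately for each panel) of Emb, Bsg, Txnip, Slc50a1, Brp44l and Slc25a13 in noggin libraries (red points, left) and control libraries (dark points, right), with the mean and SD over 3 libraries. Emb and Slc50a1 lie higher in all noggin libraries, with lowest noggin values of 14.0 and 81.0 FPKM, against highest control values of 4.69 and 51.5 FPKM.

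Markers of some other gastric cells also differed between groups, beside shares of 1.75% called higher and 0.695% called lower among all tested genes. Summed FPKM of 5 mucous neck cell markers was 25860, 10760 and 13020 in noggin libraries, against 3166, 3362 and 2456 in control libraries, and all 5 rose. Of 9 parietal cell markers 4 fell, and their sum was 28700 to 32000 in noggin libraries and 32850 to 40090 in control libraries. The 6 chief cell markers summed to 131300 to 357800 FPKM in noggin libraries and 60940 to 112000 FPKM in control libraries, with none called. The 6 enteroendocrine markers summed to 1859 to 28380 FPKM in noggin libraries and 431 to 2598 FPKM in control libraries, with 2 of 5 tested higher, and the 8 leukocyte markers to 38.4 to 282 FPKM in noggin libraries and 6.52 to 7.98 FPKM in control libraries, with 1 of 5 tested higher. The 5 pit cell markers overlapped, at 23000 to 49630 FPKM in noggin libraries and 21880 to 26170 FPKM in control libraries. The 3 erythroid markers summed to 3.75 to 63.8 FPKM in noggin libraries and 0.344 to 3.39 FPKM in control libraries. The 5 stromal and 3 endothelial markers stayed at or under 5.70 FPKM in every library, with Cdh5 listed at 0 in all. These sums are of deposited values and were not rescaled, although every noggin library had a larger FPKM total than any control library. The part of these cells in the carrier results was not tested, and in such bulk samples fewer cells of a type and less RNA per cell cannot be told apart.

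The calls rest on few libraries. Without noggin replicate 3, the library that stood apart, the log2 fold changes were 2.09 for Slc38a5, 1.58 for Slc2a5 and -1.19 for Slc2a4 (limma, adjusted p = 0.0311, 0.0311 and 0.0375). Without noggin replicate 2, 2 members were called higher and 7 lower, against 11.2% and 7.75% of all tested genes, and the 6 lower besides Slc2a4 were Slc38a10, Slc7a8, Slc1a3, Slc38a2, Slc2a12 and Slc1a2. Without noggin replicate 1, or without any 1 control library, no member was called. Over all 10644 tested genes, 44 were called higher and 21 lower without noggin replicate 1. Without control replicates 1, 2 and 3, the counts were 4 and 5, 39 and 7, and 7 and 5. Calls were thus few over all genes in these fits. For Slc38a5, the adjusted p (limma) was then 0.0546 without noggin replicate 1, and 0.0966, 0.115 and 0.192 without control replicates 1, 2 and 3. For Slc2a4 these adjusted p values (limma) were 0.0534 without noggin replicate 1, and 0.157, 0.146 and 0.222 without control replicates 1, 2 and 3. For Slc2a5 they were 0.0528, and 0.202, 0.203 and 0.272, in the same order (limma). Of these fits, Emb lost its call only in those without a control library (limma, adjusted p = 0.157, 0.126 and 0.204 without replicates 1, 2 and 3), and kept it without any 1 noggin library. Slc50a1 lost its call without any 1 library other than noggin replicate 2 (limma, adjusted p of 0.0539 to 0.242). Without the filter on low values no member and no related gene was called, but only 8 of all 19818 genes were then called higher and 4 lower. Smaller pseudocounts ended the calls of Slc2a5 and Slc50a1 (limma, adjusted p = 0.0601 for each with 0.1 FPKM). A pseudocount of 0.01 FPKM also ended that of Emb (limma, adjusted p = 0.0519). A fit without a mean-variance trend ended the calls of Slc2a4, Emb and Slc50a1 (limma, adjusted p = 0.0627, 0.0519 and 0.0766).

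With libraries rescaled to the same total, 1 member was called higher, Slc38a5, and 6 lower, Slc2a4, Slc38a10, Slc7a8, Slc1a3, Slc38a2 and Slc16a7, against 1.22% higher and 7.7% lower of all tested genes. Under that scaling the median change in log2 units was -0.63 over the 10644 tested genes and -0.52 over the tested members. Relative to that shift Slc38a5, at 1.67, and Slc2a4, at -2.05, lay on the same sides as before. Slc2a5 lost its call there at 1.27 (limma, adjusted p = 0.0604). Txnip, not called as reported, was called there at -1.55 (limma, adjusted p = 0.0328). Slc38a3 stood at 0.02, Slc7a7 at 0.49, Slc16a3 at 0.61 and Bsg at 0.04, all uncalled. In the same order they lay 0.65, 1.12, 1.24 and 0.67 above the median of all tested genes.

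**Figure D5:**
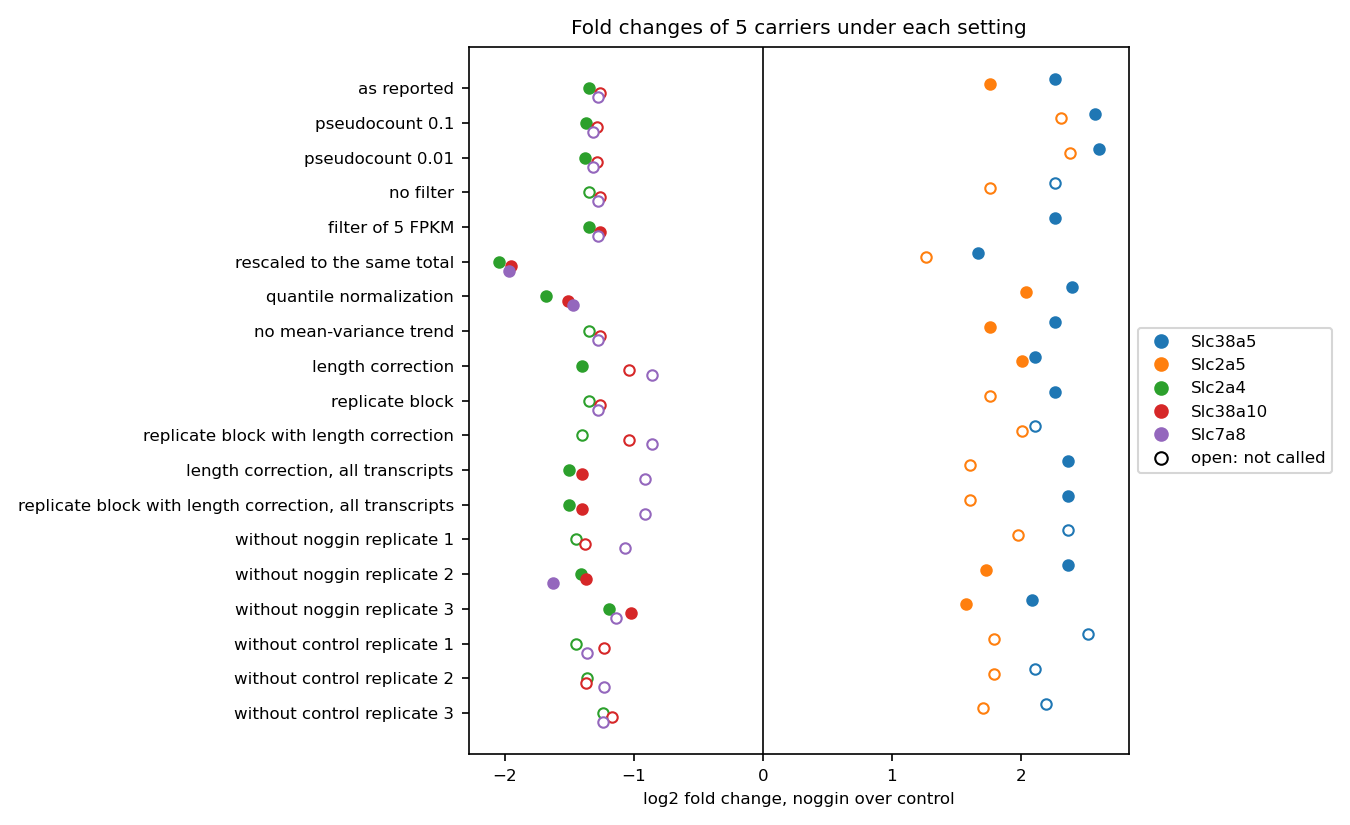
Log2 fold change (x axis, noggin over control) of Slc38a5, Slc2a5, Slc2a4, Slc38a10 and Slc7a8 as reported and under each alternative setting (rows), with filled points for an adjusted p under 0.05 and open points otherwise. Slc38a5 ranges from 1.67 to 2.61 and Slc2a4 from -2.05 to -1.19, so neither crosses 0, but both lose their call in the rows without noggin replicate 1 or without any control library.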

How the data were processed

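RNA from tdTomato-sorted parietal cells was sequenced as 50 base single-end reads from SMART-Seq Ultra Low Input V3 libraries made from at least 1 ng of RNA, per the labels' protocols. The authors deposited FPKM per gene for each library, and build mm10, bcl2fastq and FastQC 0.10.0 are named in the submitters' processing notes. The aligner, quantifier, annotation and strandedness are not given in the sources. Low values showed no common step between control replicates 1 and 3 (the commonest ratio occurred in 5 of 2156 genes), so whole reads were not recovered and depth is unknown.

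Groups came from the sample titles. The 10644 genes that reached 1 FPKM in 3 or more libraries were tested with limma 3.58.1 in R 4.3.3 on log2(FPKM + 1), with a mean-variance trend, two-sided, and Benjamini-Hochberg adjustment over all of them. Fold changes are on that scale, which understates the change of low genes. Shares and ratios used an exact permutation test over samples. On simulated data of the noggin and control comparison (10644 genes, 200 changed, 5 runs), the test recovered 4.4% of genes at a simulated log2 change of 1 and 48.6% at 2, with 3.28% false calls. The simulation gave both groups the same spread for a gene. It also did not model noggin replicate 3, which listed 542 tested genes at 0, so these rates may not hold for the real libraries.

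The members, lists and tests were chosen with earlier results of these data known. Named members were those called, the 8 highest and 8 lowest changes among those averaging at least 5 FPKM in a group, and the 2 most abundant of each of 11 families, plus called or listed partners. Slc1a2, Slc5a1, Slc7a5, Slc16a1 and a few gene ratios were named after values were seen.

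Alternatives were other pseudocounts and filters, library scalings, the trend, a correction for transcript length, a replicate block and leaving out each library. Rescaled and leave-one-out fits kept the 10644 genes of the reported fit, a choice made after fits with a repeated filter had been seen. Transcript length was first the median over all GENCODE M21 transcripts of a gene, which include fragments (761 bases for Slc2a4). After the calls of that correction had been seen it was replaced by the median over the basic set (2150 bases for Slc2a4), and both are reported.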

Additional observations from a re-analysis of the deposited data

How the results depend on the processing

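Every called member and Emb kept its direction under the 18 alternatives where it was fitted, but no call held under all. Members called were 2 higher and 1 lower as reported, with a pseudocount of 0.1 or 0.01 1 higher and 1 lower, with no filter 0 and 0, with a filter of 5 FPKM 1 and 2, rescaled to the same total 1 and 6, after quantile normalization 3 and 4, and with no mean-variance trend 2 and 0. The length correction, which has 2 definitions of length, gave 2 higher and 1 lower with basic-set lengths and 1 and 2 with all transcripts. The basic-set definition was adopted after the calls of the other had been seen. Over all tested genes, 186 higher and 74 lower as reported became 130 and 820 when rescaled, 243 and 231 after quantile normalization, 66 and 17 with no trend, 75 and 25 with basic-set lengths and 129 and 55 with all transcripts. With a pseudocount of 0.1 they became 85 and 26, and with 0.01 they became 72 and 21. With no filter they were 8 and 4 of 19818 genes, and with a filter of 5 FPKM 197 and 80 of 7348. The basic-set definition keeps Slc2a5 (adjusted p = 0.0433, limma) and leaves Slc38a10 uncalled (0.0903), whereas all transcripts end the call of Slc2a5 (0.0603) and call Slc38a10 (0.0379).

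No pairing by replicate number was seen (correlations of deviations between same-numbered libraries 0.105, -0.141 and 0.00519), but such correlations cannot exclude a weak one. A replicate block gave 1 higher and 0 lower, the block with the length correction 0 and 0, and with all transcripts 1 and 2. Over all tested genes these fits gave 128 and 32, 50 and 15, and 148 and 51, in the same order. The block alone ended the calls of Slc2a4 and Slc2a5 (limma, adjusted p = 0.0529 and 0.0886). Leaving out 1 library gave 0 to 3 members higher and 0 to 7 lower, against 4 to 1187 and 5 to 825 of all 10644 tested genes. The median over members was -0.52 when rescaled. Every noggin library has a larger FPKM total than any control library, so rescaling lowers noggin values relative to control values.

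Genes called among the related lists were 2 as reported, 1 with a pseudocount of 0.1, 0 with 0.01, 0 with no filter, 6 rescaled, 0 with no trend, 1 with the length correction and 1 with it and the block, under either definition, and 0 to 14 with 1 library left out. The 14 came without noggin replicate 2, where 11.2% of all tested genes were called higher and 7.75% lower. When rescaled these shares were 1.22% and 7.7%, and as reported 1.75% and 0.695%. The counts are therefore not a result about these lists as a whole.

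Reversed directions concerned uncalled genes, and the cause was not tested beyond the scaling itself. Rescaling also moved the median of all tested genes to -0.63, and relative to that median the following 7 genes stayed above 0. It gave Slc2a8 -0.14, Slc6a8 -0.15, Slc7a6os -0.30, Slc15a4 -0.61, Slc3a2 -0.38, Slc36a1 -0.20 and Brp44l -0.21. Quantile normalization gave Slc3a2 -0.03, Slc43a2 0.24, Bsg -0.04 and Brp44l -0.27. The length correction, with or without the block, gave Slc7a6os -0.09, Slc1a5 0.04, Slc2a1 0.01, Slc43a2 0.38, Slc5a6 0.11, Slc6a6 0.36 and Brp44l -0.14, and with all transcripts Slc15a4 -0.15 and Slc5a6 0.21. Leaving out 1 library gave -0.22 to 0.89 for Slc6a8 and -0.06 to 0.50 for Slc36a1 (lowest without noggin replicate 1), -0.34 to 0.33 for Slc1a5 (highest without noggin replicate 3), and -0.35 to 0.49 for Slc15a4 (lowest without noggin replicate 3). With 3 libraries a group and unknown depth, a member not called is not shown to be unaffected.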
